A study of Mus musculus with 24 samples.

Results

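The genes described here are 10 extracellular matrix genes of cartilage that are known targets of SOX9 in chondrocytes, measured in a brain region, the developing mouse archicortex (ARK). They were chosen by name, as the rows for *Col2a1*, *Col9a1*, *Col9a2*, *Col9a3*, *Col11a1*, *Col11a2*, *Col27a1*, *Hapln1*, *Acan* and *Matn4*, by a rule that uses no measured value, although earlier results of these data were known when the genes were chosen. All 10 were found among 51912 genes listed. Of these genes 16454 passed a filter on low values (4 or more libraries at 10 or above), and they included 9 of the 10 matrix genes, since *Matn4* did not pass.

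The ARK was dissected from embryos of a mixed C57BL/6J;MF1 background and its RNA was sequenced in 24 libraries, 4 in each of 6 groups. At E13.5 there were *Sox9fl/fl;Sox1Cre* mutants (libraries A1 to A4) with *Sox9+/+;Sox1Cre* controls (A5 to A8), and *Sox9fl/fl;NestinCre* mutants (A17 to A20) with *Sox9+/+;NestinCre* controls (A21 to A24). At E12.5 there were *Sox9fl/fl;Sox1Cre* mutants (A9 to A12) and *Sox9+/+;Sox1Cre* controls (A13 to A16). Mutants and controls of a line both carried its Cre, so the presence of the recombinase did not differ between them. Sox1Cre is a targeted allele of Sox1, used by the study to delete *Sox9* throughout the ARK, that is the cortical hem (CH) and the hippocampal and dentate neuroepithelium beside it. Nestin-Cre is a transgene that acts later, used to delete *Sox9* in the dentate neuroepithelium. The paper describes it as mostly, not wholly, inactive in the CH. The labels do not say whether libraries came from separate litters, so each p-value measures the spread between these libraries. In bulk RNA of this kind, fewer cells that express a gene and less RNA per cell cannot be told apart.

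In cartilage, SOX9 works with SOX5 and SOX6 to switch on a matrix programme. Type II collagen, encoded by *Col2a1*, forms the main fibrils, and type XI collagen (*Col11a1* and *Col11a2*, whose remaining chain is a product of *Col2a1*) sits in the same fibrils and limits their width. Type IX collagen, a trimer of the products of *Col9a1*, *Col9a2* and *Col9a3*, decorates the fibril surface, and *Col27a1* encodes a fibrillar collagen of growth plate cartilage. Aggrecan (*Acan*) is the large proteoglycan that holds water between the fibrils, the link protein encoded by *Hapln1* fixes it to hyaluronan, and matrilins such as the product of *Matn4* bridge matrix components. Several of these genes are also active outside cartilage, and *Col2a1* is transiently expressed in neuroepithelium of the embryo. Neural progenitors carry high levels of *Sox9* as well, and in the CH and the ventricular zone the factor is tied to the start of gliogenesis.

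The collagen members share a sequence feature that the choice by name did not use, the run of triplets that begin with glycine and fold into the collagen helix. The opening 90 bases of the longest such run are shown for the chains that the comparisons below turn on, from the longest coding transcript of each gene in GENCODE M21 (GRCm38), 5′ to 3′ on the coding strand, with glycine codons in capitals.
*Col2a1* (transcript Col2a1-201, coding bases 601 to 690): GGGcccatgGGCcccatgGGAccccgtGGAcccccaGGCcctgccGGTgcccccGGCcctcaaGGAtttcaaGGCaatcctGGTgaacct
*Col9a2* (transcript Col9a2-201, coding bases 538 to 627): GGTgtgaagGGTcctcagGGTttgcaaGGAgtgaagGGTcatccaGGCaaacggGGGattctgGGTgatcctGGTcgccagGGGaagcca
*Col9a3* (transcript Col9a3-203, coding bases 529 to 618): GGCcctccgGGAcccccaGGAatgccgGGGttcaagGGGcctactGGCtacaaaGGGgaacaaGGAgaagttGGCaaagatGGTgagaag
The run that begins with the *Col2a1* stretch went on for 339 triplets without a break, and those of *Col11a1* and *Col11a2* for 338 each. These 3 genes each had 2 runs of at least 10 triplets. *Col27a1* had 3 such runs, the longest of 217 triplets. The 3 type IX chains, whose helix is known to be interrupted, had 5 such runs each, the longest of 113 triplets in every chain. *Hapln1*, *Acan* and *Matn4* encode no such helix, and their longest runs were of 2, 3 and 2 triplets.

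The genes are scattered over several chromosomes. In GRCm38, *Col2a1* spans chr15:97975602-98004695 on the minus strand, *Col9a1* chr1:24177610-24252684, *Col9a2* chr4:121039385-121055322, *Col9a3* chr2:180597790-180622189 and *Hapln1* chr13:89539796-89611652, the last 4 on the plus strand. Reads were counted over all exons of a gene. Exons of *Col9a3* overlap those of the antisense gene *Tcfl5* over 234 bases, and the strand setting of the counting is not given in the sources used here, so reads from the overlap cannot be assigned with certainty. *Tcfl5* had a mean normalized count of 27.9.

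Each library had between 16163560 and 49445219 reads on genes (median 23016925), and all values below are normalized counts, that is reads divided by a size factor of the library. Library A1, an E13.5 Sox1Cre mutant, stood apart from the rest. It had the lowest summed normalized count of all 24 libraries for the 14 meningeal and fibroblast markers (20271, against a median of 43643), for the 8 choroid plexus markers (7784, against 36391) and for the matrix genes themselves (4602, against 7761). A1 was also lowest for CH markers (16054, against 29446), endothelial and pericyte markers (5427, against 11105) and other collagens (43221, against 92329). For dorsal telencephalic markers A1 was highest (45064, against 41520). Library A18, a Nestin-Cre mutant, had the highest sum of the 7 ventral telencephalic markers (658, against a median of 32.2). The groups were also unevenly composed by sex, as judged by *Xist* (above 1000) and the Y-linked *Ddx3y* (above 500). All 4 E13.5 Sox1Cre controls were *Ddx3y*-positive and all 4 E12.5 Sox1Cre controls were *Xist*-positive, both Sox1Cre mutant groups and the Nestin-Cre mutants had 2 of each, and the Nestin-Cre controls had 3 *Ddx3y*-positive libraries and 1 *Xist*-positive library.

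The fibrillar collagen *Col2a1* was the most abundant of the 10 genes per length. Its mean over 24 libraries was 534 normalized counts per kb of exon, more than 85.4% of the genes tested. *Col11a1* followed with 172 per kb, then the type IX chains *Col9a2* with 83.7 and *Col9a3* with 42.7. The third type IX chain, *Col9a1*, had only 8.63 per kb, below the link protein gene *Hapln1* (22.5) and *Col27a1* (10.3). At the bottom were *Col11a2* with 2.82 per kb, *Acan* with 1.35 and *Matn4* with 0.247. The order was the same when the length of the longest coding transcript was used in place of all exons. So of the type XI chains *Col11a1* was far above *Col11a2*, and aggrecan, the main proteoglycan of cartilage, was near the limit of the filter (mean of 10.1 normalized counts, 247 reads in all libraries together). *Matn4* was at 0 in 11 libraries and had 31 reads in all, of which 14 came from the Nestin-Cre mutants A19 and A20. A count of 0 allows up to 3 reads, or between 1.42 and 4.38 normalized counts in those 11 libraries, a limit that covers counting error only, so no change is given for *Matn4*.

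**Figure D1:**
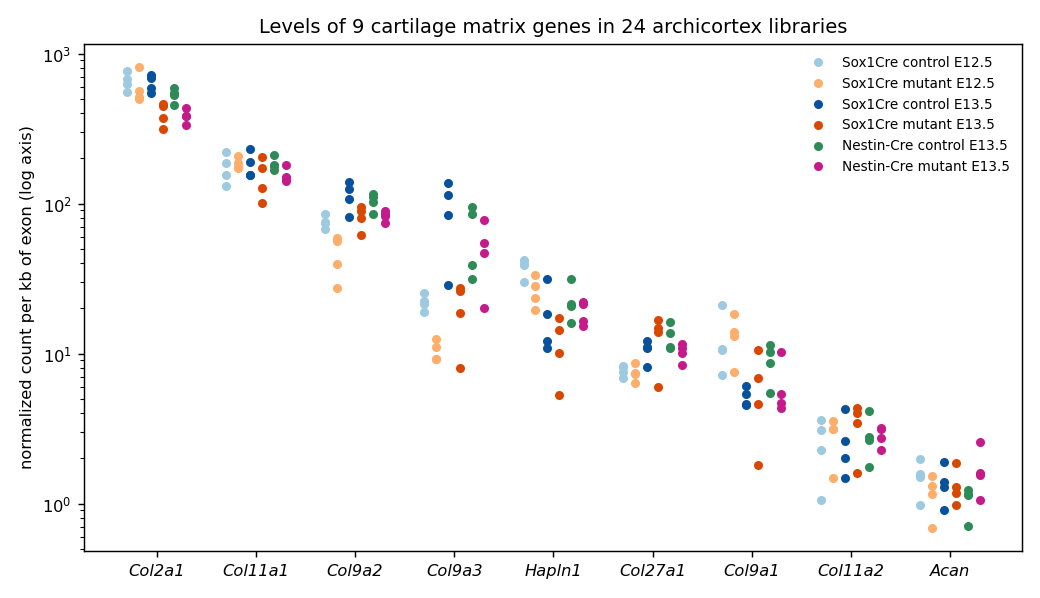
Normalized count per kb of exon (log axis) of the 9 cartilage matrix genes that passed the filter, each point 1 of the 24 libraries, coloured by group. Col2a1 sits highest (mean 534 per kb) and Acan lowest (mean 1.35), and Col9a3 has the widest spread, from 31.03 to 527 normalized counts.

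The genes differed in how far they varied across the libraries. *Col9a3* ranged 17-fold from the lowest library to the highest and *Col9a1* 11.7-fold, whereas *Col2a1* ranged 2.59-fold and *Col11a1* 2.28-fold. *Hapln1* (7.97-fold) and *Col9a2* (5.14-fold) lay between them.

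The dissected tissue carried the markers of its label. Of the 8 markers fixed for chondrocytes, 6 had means of under 10 normalized counts, and *Matn1*, *Snorc* and *Col10a1* of under 1. The most abundant per length was *Cnmd* (chondromodulin) with a mean of 44.0, and the list's sum ran from 30.5 to 246. Per kb of exon *Cnmd* had 23.9, between the matrix genes *Col9a3* (42.7) and *Hapln1* (22.5). All 8 also belong to the list of other cartilage matrix genes used below. Dorsal telencephalic markers, led by *Lhx2*, summed to between 37340 and 45064, and CH markers, led by *Wnt8b*, to between 16054 and 67102. Meningeal cells make fibrillar collagens, and meningeal markers led by *Col3a1* were high in all libraries (20271 to 61250). They did not pass the test in any mutant comparison (0 of 14, with at most 1 at an unadjusted p under 0.05), although 12, 11 and 8 of the 14 had a negative change in the Sox1Cre E13.5, Nestin-Cre and Sox1Cre E12.5 comparisons, and their part in the levels of the matrix genes was not tested. Of these 14 markers *Col1a1*, *Col1a2* and *Col3a1* also stand among the other collagens below.

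*Sox9* itself was examined first, in all 24 libraries. At E13.5 its normalized counts were 5218, 5912, 5450 and 5731 in Sox1Cre controls and 3563, 2828, 3384 and 3677 in Sox1Cre mutants. In Nestin-Cre controls they were 5636, 4979, 4586 and 5406, and in Nestin-Cre mutants 3089, 2997, 3083 and 3369. At E12.5 they were 4391, 5265, 4237 and 4194 in controls and 2785, 1733, 2593 and 1928 in mutants. Every mutant library lay below every control library of its line and age. Mean *Sox9* was 39.7% and 39.2% lower in the Sox1Cre and Nestin-Cre mutants at E13.5, and at E12.5 it went from 4522 to 2260 (log2 change of -0.74, -0.71 and -1.02, with adjusted p of 0.0021, 0.0297 and 6.28e-05, limma with Benjamini-Hochberg adjustment over 16454 genes). The conditional allele keeps exon 1 after recombination, so counts over the whole gene include transcript from deleted alleles. In the Nestin-Cre line the change stayed between -0.67 and -0.75 with any single library left out, but *Sox9* passed the threshold no longer without A17, A18, A19, A20, A21, A22 or A24 (adjusted p of 0.0623 to 0.11) or with the *Xist* covariate (0.0617).

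**Figure D2:**
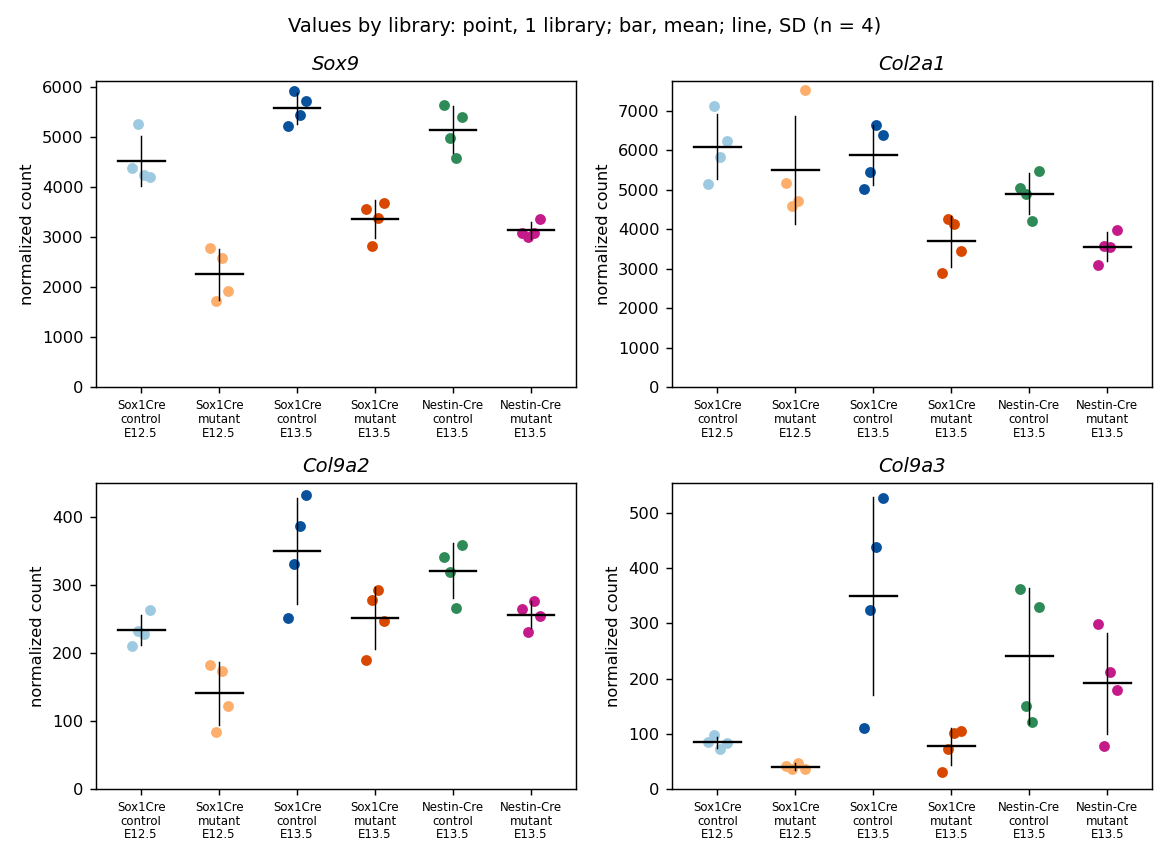
Normalized counts (linear axis from 0) of Sox9, Col2a1, Col9a2 and Col9a3 in the 6 groups, each point 1 library, with a bar at the mean and a line for the SD (n = 4). Sox9 is lower in all 3 mutant groups, and Col9a3 is high and widely spread in E13.5 controls (111 to 527 in the Sox1Cre line) and low at E12.5.

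With *Sox9* deleted throughout the ARK at E13.5, *Col2a1* and *Col9a3* fell, and they were the only 2 of the 9 matrix genes tested that passed the threshold. Mean *Col2a1* was 37.1% lower in *Sox9fl/fl;Sox1Cre* mutants and mean *Col9a3* 77.9% lower. The other 7 genes did not pass, among them the partner chains *Col11a1*, *Col9a1* and *Col9a2*. In this comparison 152 genes passed in all, 0.924% of those tested (60 higher and 92 lower).

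*Col2a1* had 5018, 5445, 6636 and 6380 normalized counts in the 4 controls and 2902, 4265, 4136 and 3455 in the 4 mutants. All mutants lay below all controls, with the lowest value in A1. The log2 change was -0.68 ± 0.15 (SE) with an adjusted p of 0.0241 (limma), and the exact permutation test over the 8 libraries gave the smallest two-sided p that it can give, 0.0286. Without A1 the change was -0.57 and the adjusted p 0.041. It passed the threshold no longer when A4, A7 or A8 was left out (adjusted p of 0.076, 0.0838 and 0.0643), with the 8 libraries of the comparison fitted alone (0.14) or with *Xist* as a covariate (0.0583).

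For *Col9a3*, controls had 111, 325, 439 and 527 normalized counts and mutants 31.03, 72.0, 101 and 105. The groups did not overlap, although the control A5 stood only just above the highest mutant. The log2 change was -2.10 ± 0.47 (SE; 95% interval from -3.07 to -1.12; adjusted p = 0.0296, limma; exact permutation p = 0.0286). Without A1 it was -1.71 (adjusted p = 0.0474). Leaving out A2, A6, A7 or A8 took the adjusted p to between 0.0646 and 0.094, fitting the 8 libraries alone to 0.288, and the *Xist* covariate to 0.0931. Of the mutants, A1 and A4 were *Ddx3y*-positive like all 4 controls. They had 31.03 and 105 in *Col9a3*, against at least 111 in controls. In *Col2a1* they had 2902 and 3455, against at least 5018. Since all 4 mutants lay below all 4 controls for both genes, this order had to hold and is no test of sex. The sum of the 8 chondrocyte markers, most of it *Cnmd*, ran in the same order of libraries within each group, with 47.6, 89.1, 156 and 246 normalized counts in controls and 45.6, 64.5, 66.6 and 116 in mutants. The groups of this sum overlapped. Of its genes 4 were tested, 2 with a negative and 2 with a positive change (from -2.04 to 0.65), and none passed. Its part in the change of *Col9a3* was not tested.

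*Col2a1* and *Col9a3* were also the only 2 matrix genes whose 4 mutants all lay below the 4 controls, which was so for 2.6% of the genes tested. Of the other type IX chains, *Col9a2* had a mean of 350 ± 78.2 in controls and 252 ± 45.6 in mutants (SD, n = 4), with a log2 change of -0.47 that did not pass (adjusted p = 0.355). *Col9a1* had 26.1 ± 3.73 and 30.3 ± 18.8, the wide spread in mutants running from 9.13 in A1 to 53.8 in A2, and the sign of its small change depended on the setting. Among the fibrillar partners, *Col11a1* had a log2 change of -0.30 (adjusted p = 0.549), *Col11a2* of 0.36 (0.792) and *Col27a1* of 0.20 (0.803). A1 was the lowest mutant for each of these partners. Without A1 the fall of *Col11a1* is smaller, and the positive changes of *Col11a2* and *Col27a1* are larger. For *Col27a1*, A1 had 78.5 normalized counts, and A2, A3 and A4 had 181, 217 and 194, against 105 to 159 in controls. *Hapln1* had 107 ± 55.2 in controls and 69.5 ± 30.9 in mutants (log2 change -0.61, adjusted p = 0.489). Its highest control was A5 (185) and its lowest mutant A4 (31.3), and without either library the fall is smaller. *Acan* had 10.2 ± 3.01 in controls and 9.93 ± 2.84 in mutants. Over the 9 genes tested, 7 had a negative change and 2 a positive change, with a median of -0.30. The median over all genes tested was -0.0046, and 51.4% of them were negative. A1 was the lowest of the 4 mutants for every matrix gene tested but *Hapln1*, so this tally and median depend in part on that library. Negative changes were also the more frequent among meningeal and fibroblast markers (12 of 14, median -0.22) and endothelial and pericyte markers (6 of 8, median -0.29). The same held for CH markers (8 of 10, median -0.10) and other collagens (14 of 21, median -0.15). None of these passed, and their part in the changes of the matrix genes was not tested.

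**Figure D3:**
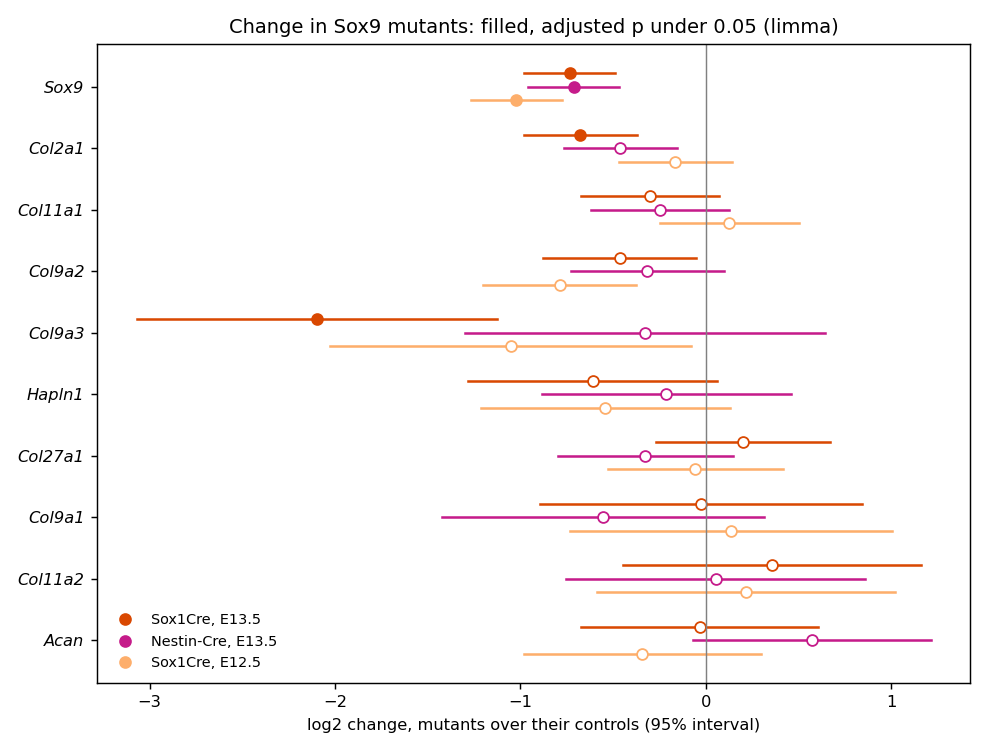
Log2 change in mutants over their controls for Sox9 and the 9 matrix genes tested, with 95% intervals from limma, in the 3 mutant comparisons, filled where the adjusted p was under 0.05. Sox9 is filled in all 3, and Col2a1 and Col9a3 only in Sox1Cre mutants at E13.5, where Col9a3 has the change of greatest size (-2.10).

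When *Sox9* was deleted in the dentate neuroepithelium with Nestin-Cre, none of the 9 matrix genes passed the threshold, in a comparison in which 11 genes passed in all (0.0669% of those tested). At an unadjusted p under 0.05 there was 1 (*Col2a1*), beside 1064 of the 16454 genes tested, and edgeR and DESeq2 on the recovered reads called 0. *Col2a1* came nearest and was lower in every mutant, with 5040, 4895, 4204 and 5461 normalized counts in controls and 3099, 3568, 3552 and 3991 in mutants. The mean was 27.5% lower, with a log2 change of -0.46 ± 0.15 (SE), a raw p of 0.00473 and an adjusted p of 0.48 (limma), and an exact permutation p of 0.0286. It was the only matrix gene of this comparison whose groups did not overlap, as they did not, with mutants lower, for 2.8% of the genes tested.

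*Col9a3* in the Nestin-Cre line spread as widely within groups as between them. Controls had 363, 150, 122 and 330 normalized counts and mutants 299, 77.6, 212 and 180, and the groups overlapped. The log2 change was -0.33 (95% interval from -1.30 to 0.64; adjusted p = 1, limma), and without A18, the library rich in ventral markers, it was 0.05. A18 also had the lowest chondrocyte marker sum of the 24 libraries (30.5). *Col9a2* had 321 ± 40.5 in controls and 257 ± 19.7 in mutants (SD, n = 4; log2 change -0.32, adjusted p = 0.914). The changes of *Col9a1*, *Col11a1*, *Col27a1* and *Hapln1* lay between -0.55 and -0.21, and those of *Col11a2* and *Acan* were 0.05 and 0.57. Adjusted p was at least 0.831 for all of them. The -0.21 was that of *Hapln1*, whose highest control was A22 (187, above 125 in A21), and without A22 its fall is smaller. The matrix genes had 7 negative and 2 positive changes with a median of -0.32, beside -0.0021 over all genes tested. Changes were also negative for 11 of 14 meningeal and fibroblast markers (median -0.13), 8 of 8 endothelial and pericyte markers (-0.15) and 8 of 9 erythroid markers (-0.06), none of which passed, and their part was not tested.

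The change of *Col9a3* differed by 1.77 on the log2 scale between the Cre lines at E13.5 (95% interval from 0.39 to 3.14), with a raw p of 0.0142 and an adjusted p of 0.393 (limma), so the difference did not pass the threshold. That of *Col2a1* differed by 0.21 (interval from -0.22 to 0.64; adjusted p = 0.905), by 0.10 without A1, by 0.14 without A23 and by 0.14 with array weights. In this test of the difference 7 genes passed, 0.0425% of those tested, and none was a matrix gene.

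At E12.5, a day earlier, no matrix gene passed the threshold in *Sox9fl/fl;Sox1Cre* mutants, although 119 genes passed in all (0.723%). At an unadjusted p under 0.05 there were 2 (*Col9a2* and *Col9a3*), beside 2217 of the 16454 genes tested, edgeR called 0 and DESeq2 called 1. The type IX chains *Col9a2* and *Col9a3* nevertheless had all 4 mutants below all 4 controls, as had 5.93% of the genes tested. *Col2a1* overlapped between groups. The chondrocyte marker sums overlapped too (36.5 to 88.6 in controls and 44.4 to 84.0 in mutants).

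*Col9a2* had 210, 232, 228 and 264 normalized counts in the controls and 182, 84.2, 173 and 122 in the mutants. Its mean was 39.8% lower, with a log2 change of -0.79 ± 0.20 (SE), a raw p of 0.000693 and an adjusted p of 0.0708 (limma; exact permutation p = 0.0286). It passed under 3 alternatives, DESeq2 on the recovered reads (0.0273), array weights (0.0365) and quantile normalization (0.0323), and without A9 (0.0383) or A11 (0.0389). *Col9a3* was at low levels in all 8 libraries, with 86.1, 97.7, 72.7 and 82.7 in the controls and 42.5, 35.6, 48.0 and 35.7 in the mutants. Its mean was 52.3% lower, and the log2 change was -1.05 ± 0.47 (adjusted p = 0.331 over the shared fit, limma). Since *Col9a3* varied far more in the E13.5 libraries, the spread shared over all 6 groups was wide, and with the 8 E12.5 Sox1Cre libraries fitted alone the adjusted p was 0.0383. The mutants A10 and A11 were *Xist*-positive like all 4 controls. They had 84.2 and 173 in *Col9a2*, against at least 210 in controls, and 35.6 and 48.0 in *Col9a3*, against at least 72.7. Since all 4 mutants lay below all 4 controls for both genes, this order had to hold and is no test of sex.

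*Col2a1* at E12.5 had 5155, 7117, 5826 and 6228 normalized counts in controls and 5175, 4592, 4718 and 7516 in mutants. The highest value of all was that of a mutant, A12, and the log2 change was -0.16 ± 0.15 (adjusted p = 0.66, limma). Without A12 it was -0.32 (adjusted p = 0.404), and without A10, A11 or A14 it was between -0.10 and -0.09. *Hapln1* had 222 ± 30.7 in controls and 154 ± 35.8 in mutants (SD, n = 4; log2 change -0.54, adjusted p = 0.482). The changes of *Col9a1*, *Col11a1*, *Col11a2*, *Col27a1* and *Acan* lay between -0.34 and 0.22. Of the 9 genes 6 had a negative change, with a median of -0.16 beside 0.0020 over all genes tested. CH markers had a positive change for 10 of 10 (median 0.20) and choroid plexus markers for 7 of 7 tested (0.46). Negative changes were the more frequent among radial glial genes (8 of 10, median -0.05) and endothelial and pericyte markers (6 of 8, median -0.05). None of these passed, and their part in the changes of the matrix genes was not tested.

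Whether the mutant change itself moved between the ages was a contrast tested within that fit. For *Col2a1* it differed by -0.51 between E13.5 and E12.5 (95% interval from -0.94 to -0.08), with a raw p of 0.0221 and an adjusted p of 0.618 (limma). With a library left out this difference ran from -0.59 (without A14) to -0.35 (without A12). Its raw p was above 0.05 without A1, A12 or A13 (0.0536 to 0.0640, limma). For *Col9a3* it differed by -1.04 (interval from -2.42 to 0.33; adjusted p = 0.766), by -0.66 without A1 and by -0.65 with the *Xist* covariate. No gene at all passed in this contrast (0 of 16454, 0%), while 1217 had an unadjusted p under 0.05 and DESeq2 called 20, none of them a matrix gene. These 3 mutant comparisons share no control between the Cre lines or the ages.

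Between E12.5 and E13.5 the matrix genes moved in opposite directions in the Sox1Cre line. In controls *Col9a3* rose and *Hapln1* fell, and in mutants *Col9a2* and *Col27a1* rose while *Col2a1*, *Col9a1* and *Hapln1* fell. Between the ages 1892 genes passed in controls (11.5% of those tested) and 4263 in mutants (25.9%). With the *Xist* covariate the control comparison called 0 genes with limma (2460 at an unadjusted p under 0.05), and that of the mutants 4281. All controls at E12.5 were *Xist*-positive and all at E13.5 *Ddx3y*-positive, so in controls age and sex cannot be told apart. The mutants, with 2 *Xist*-positive and 2 *Ddx3y*-positive libraries at each age, were therefore compared as well, a comparison added after the data had been seen. The age comparisons use the same Sox1Cre libraries as the mutant comparisons.

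Mean *Col9a3* in controls was 4.13-fold higher at E13.5 than at E12.5, with all E13.5 controls above all E12.5 controls (111 to 527, against 72.7 to 97.7), as had 9.23% of the genes tested. The log2 change was 1.83 ± 0.47 (SE; adjusted p = 0.0159, limma), and without A8 it was 1.56 (0.0656). The chondrocyte marker *Cnmd* had a change of 2.45 in the same comparison (adjusted p = 0.0411, limma). Of the 4 chondrocyte markers tested, 2 had a positive and 2 a negative change, with a median of 0.06. The part of cell content was not tested. In mutants the change of *Col9a3* was 0.79 (adjusted p = 0.228), with means of 40.5 at E12.5 and 77.3 at E13.5 and groups that overlapped. *Col9a2* had a log2 change of 0.56 in controls (adjusted p = 0.0714) and rose by 0.88 ± 0.20 in mutants (adjusted p = 0.00308), where all E13.5 libraries (190 to 293) lay above all E12.5 libraries (84.2 to 182), which held for 12.4% of the genes tested. *Col27a1* rose by 0.69 in mutants (adjusted p = 0.0284) and had 0.44 in controls (0.222), and the call in mutants was lost without A2, A3, A4, A9 or A10 (adjusted p of 0.0537 to 0.102).

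The link protein gene *Hapln1* went the other way. Controls had 250, 229, 232 and 178 normalized counts at E12.5 and 185, 71.1, 108 and 64.1 at E13.5, where only A5 reached the range of the younger group. The log2 change was -1.17 ± 0.32 (SE; adjusted p = 0.0236, limma), and it passed no longer without A6, A8, A13, A14 or A15 (0.0551 to 0.094). In mutants it was -1.24 ± 0.32 (adjusted p = 0.008), and all E13.5 mutants (31.3 to 102) lay below all E12.5 mutants (115 to 198), as had 10.8% of the genes tested. *Col9a1* was lower in every E13.5 control (23.1 to 30.9) than in every E12.5 control (36.5 to 107), as were 8.74% of the genes tested. Its log2 change was -1.13 in controls (adjusted p = 0.0827) and -1.29 in mutants (adjusted p = 0.0269), where it was -0.83 without A1 (adjusted p = 0.108) and passed no longer without A4, A9, A11 or A12 either (0.0532 to 0.0918). *Col2a1* had a change of -0.05 in controls (adjusted p = 0.867) and fell by 0.56 in mutants (adjusted p = 0.00789), from 5500 ± 1367 to 3689 ± 634 (SD, n = 4). With only the 8 mutant libraries in the fit, none of these 5 changes in mutants passed the threshold, and in controls both calls were lost with the *Xist* covariate.

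**Figure D4:**
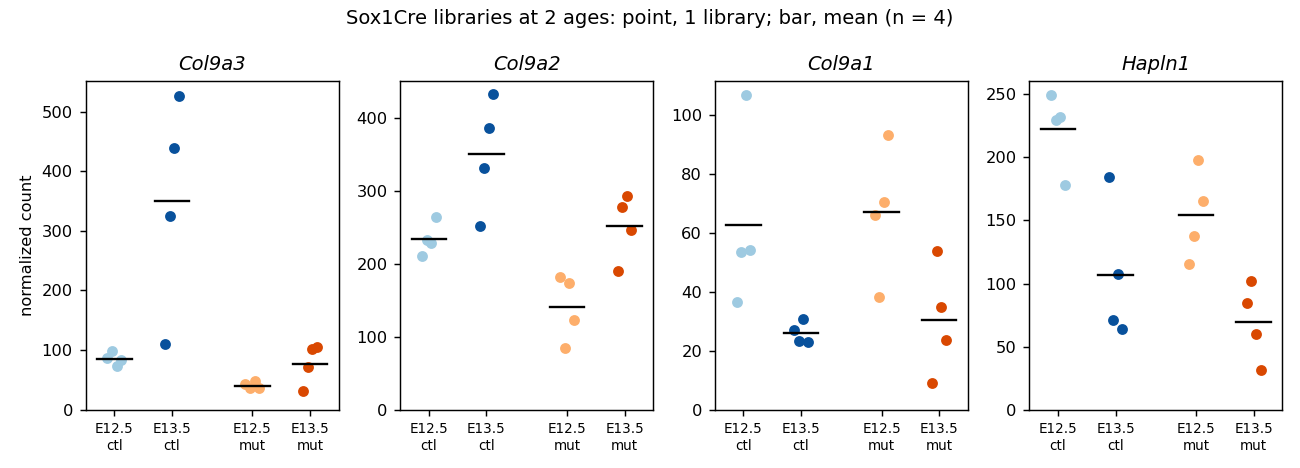
Normalized counts (linear axes from 0) of Col9a3, Col9a2, Col9a1 and Hapln1 in Sox1Cre controls (ctl) and mutants (mut) at E12.5 and E13.5, each point 1 library, bars at the mean (n = 4). Col9a3 is higher at E13.5 in controls, Col9a2 in mutants, and Hapln1 is lower at E13.5 in both.

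The SOX factors that act with SOX9 in cartilage were followed beside its targets. *Sox6* fell in Sox1Cre mutants at both ages, from 5141 ± 267 to 3783 ± 659 normalized counts at E13.5 (SD, n = 4; log2 change -0.46, adjusted p = 0.0138, limma) and from 4735 ± 342 to 3263 ± 216 at E12.5 (log2 change -0.54, adjusted p = 0.00392). At E13.5 it passed no longer without A2, A3, A4 or A6 (adjusted p of 0.0523 to 0.0579), with the 8 libraries fitted alone (0.246) or with the *Xist* covariate (0.0566). In Nestin-Cre mutants its change was -0.10 (adjusted p = 0.995). *Sox5* had changes of -0.36, -0.15 and -0.37 in the Sox1Cre E13.5, Nestin-Cre and Sox1Cre E12.5 comparisons, none of which passed (adjusted p of 0.408, 1 and 0.343). *Sox8*, a relative of *Sox9* of the same SoxE group, had 46.8 ± 28.0 in E13.5 Sox1Cre controls and 137 ± 95.5 in mutants, and 42.9 ± 18 and 124 ± 15.5 in the Nestin-Cre line. Its log2 changes of 1.38 and 1.62 did not pass (adjusted p of 0.215 and 0.426), and at E12.5 it was at 8.72 and 9.55. *Sox10* was below the filter (mean of 2.68) and reached 61.1 in a single library of the Nestin-Cre mutants.

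Matrix genes beyond the 10 were read in 4 lists, none of whose genes passed in the 3 mutant comparisons. The lists held 18 other cartilage matrix genes, of which 10 were tested and *Fmod* (fibromodulin) was the most abundant per length, 14 genes of the hyaluronan matrix of brain (11 tested, led by neurocan, *Ncan*), 21 other collagens (all tested, led by *Col4a1* of basement membranes) and 23 genes of collagen folding and crosslinking (all tested, led by *Serpinh1*, the collagen chaperone). Their median changes at E13.5 in the Sox1Cre line were -0.02, -0.18, -0.15 and -0.02, and at E12.5 0.16, -0.08, -0.02 and 0.08. In the Nestin-Cre line they were -0.06, -0.05, -0.20 and -0.05. Matrix genes outside the lists were not read. At an unadjusted p under 0.05 the 4 lists held at most 0, 2, 1 and 4 genes in a comparison, beside 1932, 1064 and 2217 of the 16454 genes tested in the Sox1Cre E13.5, Nestin-Cre and Sox1Cre E12.5 comparisons, and edgeR and DESeq2 were not read for these lists.

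Cell type markers were compared in the same fit. In Sox1Cre mutants at E13.5, *Vim*, an intermediate filament of radial glia, fell by 0.26 on the log2 scale (adjusted p = 0.0289, limma; 1 of 10 radial glial genes) and *Ebf3*, a factor of Cajal-Retzius cells, fell by 0.32 (adjusted p = 0.0352; 1 of 7). *Vim* passed no longer without A3, A5, A6 or A7 (adjusted p of 0.065 to 0.117), and *Ebf3* without any of A3 to A8 (0.0516 to 0.127), and both were lost with the 8 libraries fitted alone (0.248 and 0.127) and with the *Xist* covariate (0.0928 and 0.0791). None passed among the markers of CH, choroid plexus (led by *Ttr*), dorsal telencephalon, neurons (led by *Tubb3*), endothelium and pericytes (led by *Cdh5*), erythroid cells (led by *Hbb-y*), chondrocytes or ventral telencephalon (led by *Dlx2*), nor in the other 2 mutant comparisons, and each list held at most 2 genes at an unadjusted p under 0.05. *Cxcr4* was the most abundant Cajal-Retzius marker per length. Choroid plexus sums in the E13.5 Sox1Cre mutants were 7784, 72855, 88324 and 65787, and in their controls 30971, 29326, 67362 and 55323. The groups overlapped, and A1 had the lowest sum of the 8 libraries. The part of choroid plexus content in the changes of *Col2a1* and *Col9a3* was not tested.

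Many markers also differed between the ages, beside the 11.5% of all genes tested that passed in controls and the 25.9% in mutants, and the control calls, in which age and sex cannot be told apart, were all lost with the *Xist* covariate. Of 10 CH markers 5 fell in controls and 8 in mutants, and of 8 neuronal markers 7 rose in both. Of 14 meningeal and fibroblast markers, 3 rose and 1 fell in controls, and 3 rose and 5 fell in mutants. Erythroid markers fell for 6 of 9 in controls, and in mutants 5 fell and 1 rose. Of 7 dorsal telencephalon markers, 1 rose and 3 fell in controls, and 4 rose and 2 fell in mutants. Radial glial genes had 1 of 10 lower in controls, and 4 higher and 2 lower in mutants, and Cajal-Retzius genes 2 of 7 higher in controls, and 2 higher and 3 lower in mutants. Endothelial and pericyte markers rose for 1 of 8 in both, choroid plexus markers for 1 of 7 tested in mutants and none in controls, chondrocyte markers for 1 of 4 tested in controls and none in mutants, and none of 3 ventral telencephalon markers tested passed. Among the matrix lists, 1 gene of collagen folding and crosslinking rose and 3 fell of 23 in controls, and 3 rose and 7 fell in mutants. The hyaluronan matrix list had 2 higher and 1 lower of 11 in controls, and 4 higher and 2 lower in mutants. Of 21 other collagens 1 rose in controls, and 1 rose and 2 fell in mutants, and of 10 other cartilage matrix genes 1 rose and 1 fell in controls and 1 fell in mutants. The part of cell content in the age changes of the matrix genes was not tested.

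Similarity of pattern across the 24 libraries is given as a description, since the libraries of a group share their genotype and age. Among genes with a mean of at least 100, *Col2a1* was most like *Has2*, a hyaluronan synthase (Pearson r = 0.87 over 24 libraries), *BC067074* (0.86) and *Peg3* (0.84). After the group means were subtracted it was most like *Lrrc4*, *Zfp521* and *Smpdl3a* (0.78 to 0.83). *Col9a1* was most like *Mme*, *Tspan18* and *Colec12* (0.91 to 0.92), and within groups most like *Dlc1*, *Cped1* and *Fstl1* (0.90 to 0.91). For *Col9a3*, *Myh14* came top by both measures (0.93, and 0.89 within groups), followed by *Lrrc75b* and *2310022B05Rik* (0.89 and 0.86) and within groups by *Calcoco1* and the choroid plexus marker *Aqp1* (0.86 and 0.85). *Hapln1* was most like *Bpgm*, *Msrb3* and *Acsl5* (0.89 to 0.90), and within groups like *Alg8*, *Yap1* and *M6pr* (0.82 to 0.84).

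Among the matrix genes themselves the 2 type IX chains *Col9a2* and *Col9a3* were the closest pair over all libraries (r = 0.84, and 0.65 within groups), while *Col9a1* and *Col9a2* had an r of -0.25 over all libraries and of 0.41 within groups. With *Sox9*, *Col9a2* had an r of 0.82 and *Col9a3* of 0.69, and within groups 0.56 and 0.32. That of *Col2a1* was 0.29, and -0.03 within groups, and that of *Col27a1* was 0.32 and 0.05. The other 5 tested had values near or below 0 over all libraries, from -0.22 for *Col9a1* to -0.02 for *Col11a1*, and within groups from -0.43 for *Col11a1* to 0.11 for *Col11a2*, with -0.32 for *Hapln1*, -0.26 for *Acan* and -0.12 for *Col9a1*.

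**Figure D5:**
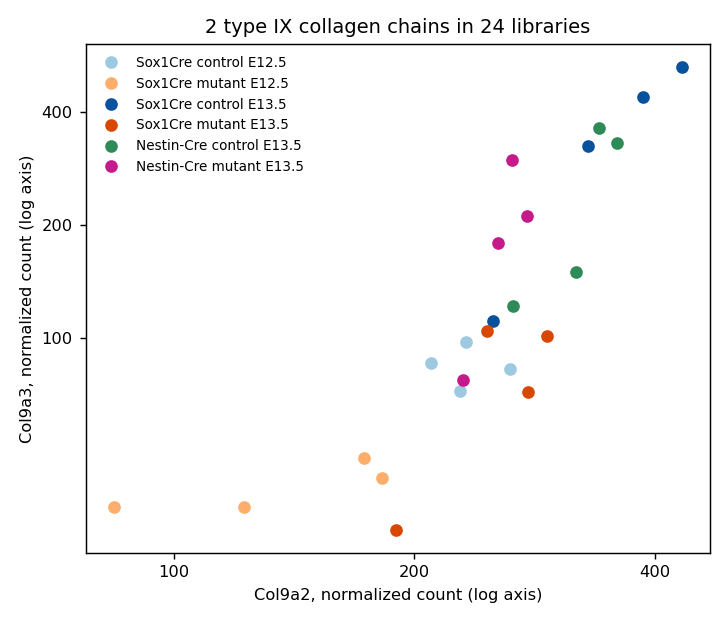
Normalized counts of Col9a2 and Col9a3 (both log axes) in the 24 libraries, coloured by group. The E12.5 mutants and A1 sit lowest, and the E13.5 controls A7 and A8 highest (439 and 527 for Col9a3).

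The RefSeq promoter table for GRCm38.p6 held 8 of the 10 genes, all but *Col2a1* and *Col9a3*, in 10 windows, each from 250 bases before to 50 bases after a start. They were searched on both strands for ACAAAG and ACAAT, cores bound by SOX proteins. Of the 10 windows 1 held a core, that of *Hapln1*, with ACAAT 249 bases before the start. Such a core was present in 42.9% of 32851 promoters. The letters TATAAA, in 13.6% of promoters, were found in the *Col11a2* window at 143 bases before the start. A match describes these letters only.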

How the data were processed

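RNA from dissected ARK was sequenced by the study in 24 libraries. According to the methods and the labels, the authors trimmed reads with Trimmomatic 0.36, aligned and counted them with STAR 2.5.2a and RSEM 1.2.31 on GRCm38, and scaled them with DESeq2 size factors. The deposited signal is the normalized count of each gene, a count of whole reads divided by a size factor per library, with replicates kept apart. Every value in the 24 libraries (100%) was a whole multiple of 1 step within 0.01 reads, so whole reads were recovered. In A3 a step is close to 1 unit, which leaves less room for this check. No column of values was left unused (0).

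Genes with at least 10 in at least 4 libraries were kept (16454 of 51912). log2(normalized count + 1) was fitted with limma 3.58.1 in R 4.3.3, with 1 mean for each of 6 groups (18 residual degrees of freedom), and two-sided p-values, adjusted by Benjamini-Hochberg, were read at 0.05. Fold changes on this scale understate those of low genes. For each matrix gene the 8 libraries of a comparison also entered an exact permutation test (35 divisions). On the recovered reads, edgeR 4.0.16 called 146, 5 and 106 genes and DESeq2 1.42.0 called 358, 37 and 294 in the Sox1Cre E13.5, Nestin-Cre and Sox1Cre E12.5 comparisons. The fits were tested on simulated data first.

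Names, exons and coding sequences came from GENCODE M21 (GRCm38), promoters from RefSeq (GRCm38.p6). The 10 genes, the gene lists and the tests were chosen with earlier results of these data known. Named are all 10 genes, *Sox9*, its partner SOX factors, the listed genes past the threshold in a mutant comparison, the most abundant gene of each list, and for *Col2a1*, *Col9a1*, *Col9a3* and *Hapln1* the 3 genes most like each. The alternatives were 2 pseudocounts, 2 filters, the libraries of a comparison alone, quantile normalization, robust eBayes, array weights, *Xist* as a covariate, edgeR, DESeq2, and leaving out each library in turn. The comparison of ages in mutants was added later.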

Additional observations from a re-analysis of the deposited data

How the results depend on the processing

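Over the 9 matrix genes, direction and side of the threshold were kept under most settings, and the settings below are the exceptions. In E13.5 Sox1Cre mutants no matrix gene passed with the libraries of the comparison alone (0, with 44 genes in all) or with *Xist* as a covariate (0). Genes in all were 962 with array weights and 358 with DESeq2, where the main count was 152. Leaving out each library gave 0 to 2 matrix genes and 90 to 510 genes, the 510 without A1.

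In the Nestin-Cre line, where 11 genes passed, 5 did so without a filter, with a mean of at least 100 and with edgeR, 17 with array weights, 2 with the *Xist* covariate, 37 with DESeq2, and 2 to 7 with a library left out. At E12.5, where 119 passed, 1 matrix gene passed with the libraries alone (76 genes), quantile normalization, array weights (577 genes) and DESeq2 (294 genes), and 0 to 1 with a library left out (50 to 139 genes).

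Between the ages, controls had 3244 genes past the threshold and 5 matrix genes with array weights, 0 and 0 with the *Xist* covariate, and 2370 and 4 with DESeq2. With a library left out they had 794 to 2629 genes and 0 to 3 matrix genes. Mutants had 2133 genes and 0 matrix genes with the 8 libraries alone, and 2948 to 4725 genes and 3 to 5 matrix genes with a library left out. The difference between Cre lines called 13 genes with the libraries alone, 369 with array weights and 95 with DESeq2, and 5 to 144 with a library left out. That between ages called 20 with DESeq2 and 0 to 1 with a library left out.

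Signs turned only for changes that did not pass. In E13.5 Sox1Cre mutants *Col9a1* was 0.010 with a pseudocount of 5, 0.37 with array weights, 0.21 with edgeR and 0.21 with DESeq2, and *Acan* 0.21 with array weights. In Nestin-Cre mutants *Col11a2* was -0.0079 with edgeR and -0.0035 with DESeq2. With a library left out, the range in E13.5 Sox1Cre mutants was -0.38 to 0.43 for *Col9a1* and -0.20 to 0.12 for *Acan*, in Nestin-Cre mutants -0.15 to 0.25 for *Col11a2* and -0.60 to 0.053 for *Col9a3*, and in E12.5 mutants -0.13 to 0.011 for *Col27a1*, -0.084 to 0.42 for *Col9a1* and -0.12 to 0.48 for *Col11a2*. Between ages it was -0.13 to 0.028 for *Col2a1*, -0.31 to 0.031 for *Acan*, -0.036 to 0.22 for *Col11a1* and -0.27 to 0.29 for *Col11a2* in controls, and -0.028 to 0.31 for *Acan* and -0.054 to 0.52 for *Col11a2* in mutants.

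Replicate numbers are not shared between groups. No paired analysis was possible because each library carries a number of its own. The sexes are unevenly spread over the groups, so a covariate for *Xist* takes up part of the comparisons. *Matn4* did not pass the filter on low values and has no change. In A3, 1 read is worth close to 1 normalized count.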
